A study of Mus musculus with 17 samples.

Results

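Glutamate and GABA receptor subunits were followed in labelled cells of the mouse postnatal subventricular zone at 6 times after electroporation, separately for progenitors of its dorsal and of its lateral wall. The members were all probes whose gene name was that of an AMPA (Gria), NMDA (Grin), kainate (Grik), delta (Grid), metabotropic glutamate (Grm), GABA-A (Gabr) or GABA-B (Gabbr) receptor subunit and whose signal was well above background, in either wall, on 2 or more arrays. Of 96 probes with such a name, 84 were kept, among 36785 kept probes of 41174 in all. They stand for 44 of 46 gene names, and the probes of Gabra6 and Gabrq fell under that limit. For testing, the brightest probe stood for a gene, which gave 48 members among 26457 tested features: 43 genes, and 5 probes that only the older of 2 versions of the array annotation assigns to a receptor gene and that were therefore kept on their own (among them 1 for Gria3 and 2 for Grin3a).

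The animals were CD1 mice, electroporated in vivo at postnatal day 1. Cells carrying GFP were sorted 8 hours (2 arrays), 1 day (3), 2 days (2), 4 days (3), 7 days (3) or 14 days (4) later. Every array carried 2 samples, cells targeted in the dorsal wall labelled with Cy3 and cells targeted in the lateral wall labelled with Cy5. All groups share the strain, the age at electroporation, the sort for GFP and a global PCR amplification of the cDNA. The labels call the arrays biological replicates and do not say whether animals were pooled or whether both walls of an array came from the same animals. The dyes were never swapped, so a dye effect of a probe and a wall difference that is the same at all times cannot be told apart. "Later" stands here for the equal-weight mean of 4, 7 and 14 days (10 arrays), and "earlier" for that of 8 hours, 1 day and 2 days (7 arrays). Levels are log2 normalized intensities, where 1 unit is a doubling of the signal. A level is set only against other levels of the same probe.

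Ionotropic glutamate receptors are ligand-gated cation channels built from subunits of the AMPA, NMDA, kainate and delta families, and AMPA receptors carry most of the fast excitatory current of the brain. GABA-A receptors are pentameric chloride channels, most often of alpha, beta and gamma subunits, while GABA-B receptors and metabotropic glutamate receptors signal through G proteins. In this germinal zone the ligands are present before synapses are: GABA and glutamate are known to act on radial glia-like stem cells and on migrating neuroblasts, whose proliferation, migration and survival they influence. Olfactory bulb interneurons, the main neuronal progeny of this zone, later receive both kinds of synapse.

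The probes themselves show how far related subunits can be told apart. Among the 4473 pairs of member probes of different genes, 1 pair was at least 70% identical over 40 or more bases. It joins the second probe of Gria1 with the probe that stands for Gria3, which read the same stretch of these paralogs. They are shown because the 2 Gria1 probes differed in the size of their change. The Gria1 probe A_51_P498031 lies at chr11:57102930-57102989 and the Gria3 probe A_52_P179309 at chrX:39007367-39007426, both on the plus strand of mm9, as the files give them. They are written 5′ to 3′, and capitals mark the 13 of 56 aligned bases at which they differ (identity 76.8%).
Gria1: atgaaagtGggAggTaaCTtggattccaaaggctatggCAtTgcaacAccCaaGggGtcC
Gria3: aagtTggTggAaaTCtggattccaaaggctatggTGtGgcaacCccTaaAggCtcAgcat

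The 17 arrays had 41% to 76.7% of their dorsal and 56.4% to 79.4% of their lateral signals well above background. The 1 day replicate 1 and 14 days replicate 2 arrays stood apart, with correlations of level to the other arrays of 0.69 and 0.766, against 0.85 to 0.92 for the other 15. Arrays lay on 5 slides. All 1 day arrays shared a slide that held no other time, as did all 14 days arrays, so these 2 times and their slides cannot be told apart, whereas slides 1, 3 and 4 each held earlier and later arrays. Cell type markers moved with time: of the mature neuron markers 5 of 8 rose (median log2 difference 1.33) and their mean level was 11.44 to 12.60 on later arrays, against 9.98 to 10.75 on earlier arrays; 6 of 7 migrating neuroblast markers rose (2.41), 8 of 10 astrocyte markers fell (-1.68) and 5 of 8 radial glia markers fell (-1.12), 1 of which, Slc1a3, stands in both glial lists. Of the proliferation markers 2 of 7 fell (-1.33, with 0 of 7 above 0), as did 3 of 6 choroid plexus and ependymal markers (-1.64) and 1 of 7 endothelial and mural markers (-0.08), while 2 of 9 oligodendrocyte lineage markers rose and 1 fell and none of 3 erythroid markers passed. The 8 microglia markers gave no call in the mean of both walls and 1 rise in the lateral wall, but moved together between neighbouring times, with median steps of -3.96, 3.76, -2.63, 3.32 and -2.27 in order of time, each with all 8 on the same side of 0 and none past the test. No marker of these lists stayed below background on all arrays of either period. In sorted bulk samples, fewer cells of a type and less RNA per cell cannot be told apart.

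Members had been kept because their signal was well above background on some arrays, so the counts of detection below describe only these members. The share of all features detected on every array is not given here, so these counts cannot be set against it. Of the 48 members, 21 were well above background on all 17 arrays in both walls, among them Grin1, Grin2c and Grin2d, Grik3 and Grik5, Gabra2 and Gabra4, Gabrb2 and Gabrg1, and Gabbr1 and Gabbr2, the obligate pair that forms the GABA-B receptor. A further 5 were above background on fewer than 9 of 17 arrays in both walls, among them Grm2, Grin2a, Gabrg3 and the older-annotation probe A_51_P146837 of Grin3a. Grin2a, the NMDA receptor subunit of mature synapses, was above background on none of 17 arrays in the dorsal channel and on 5 in the lateral channel.

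**Figure D1:**
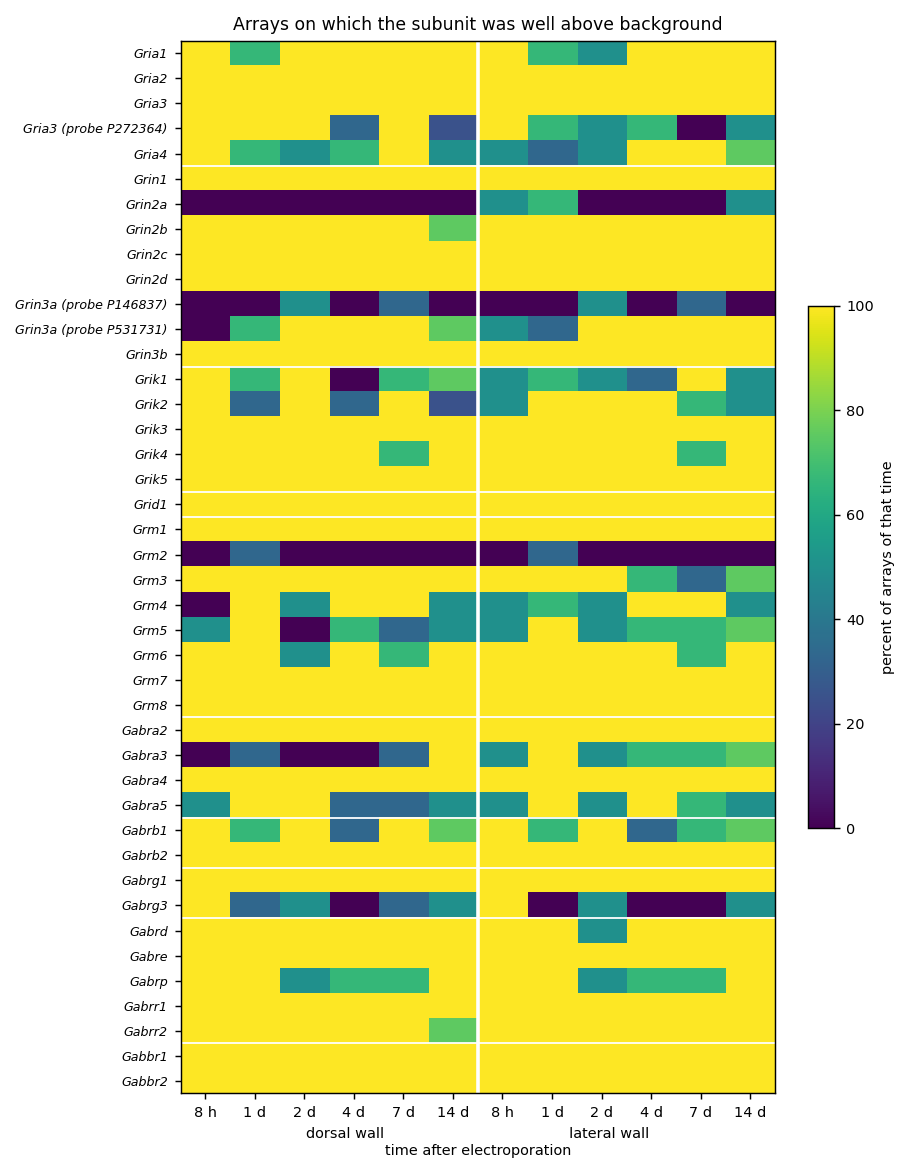
Percent of the arrays of each time on which each of 42 of the 48 members was well above background, in the dorsal wall (left block) and the lateral wall (right block), with times from 8 hours to 14 days in each block and receptor families separated by white lines. Grin2a, Grm2 and 1 probe of Grin3a stay dark in most cells, and 20 of the 42 are at 100% throughout.

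Between later and earlier times, 8 of 48 members (16.7%) changed in the mean of both walls, against 8.49% of all features, in limma's test with Benjamini-Hochberg adjustment over all features at an adjusted p of 0.05. Of all features 3.54% rose, and 7 members did, among them 3 of the 4 AMPA receptor subunits (Gria1, Gria2, Gria4), Gabbr1 and 1 probe of Grin3a. The 1 that fell, where 4.95% of all features did, was Grm3, a group II metabotropic glutamate receptor that is expressed in astrocytes and neurons. At an unadjusted p under 0.05 there were 15 members (31.2%), against 19.5% of all features. The median difference over the 48 members was 0.17, with 32 of 48 above 0, against a median of 0.03 over all features. Between the same arrays most mature neuron and neuroblast markers rose and most astrocyte and radial glia markers fell, by the counts above. Some proliferation and choroid plexus and ependymal markers also fell, oligodendrocyte lineage markers went both ways, and microglia markers gave no call. The part of these markers in the changes was not tested.

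**Figure D2:**
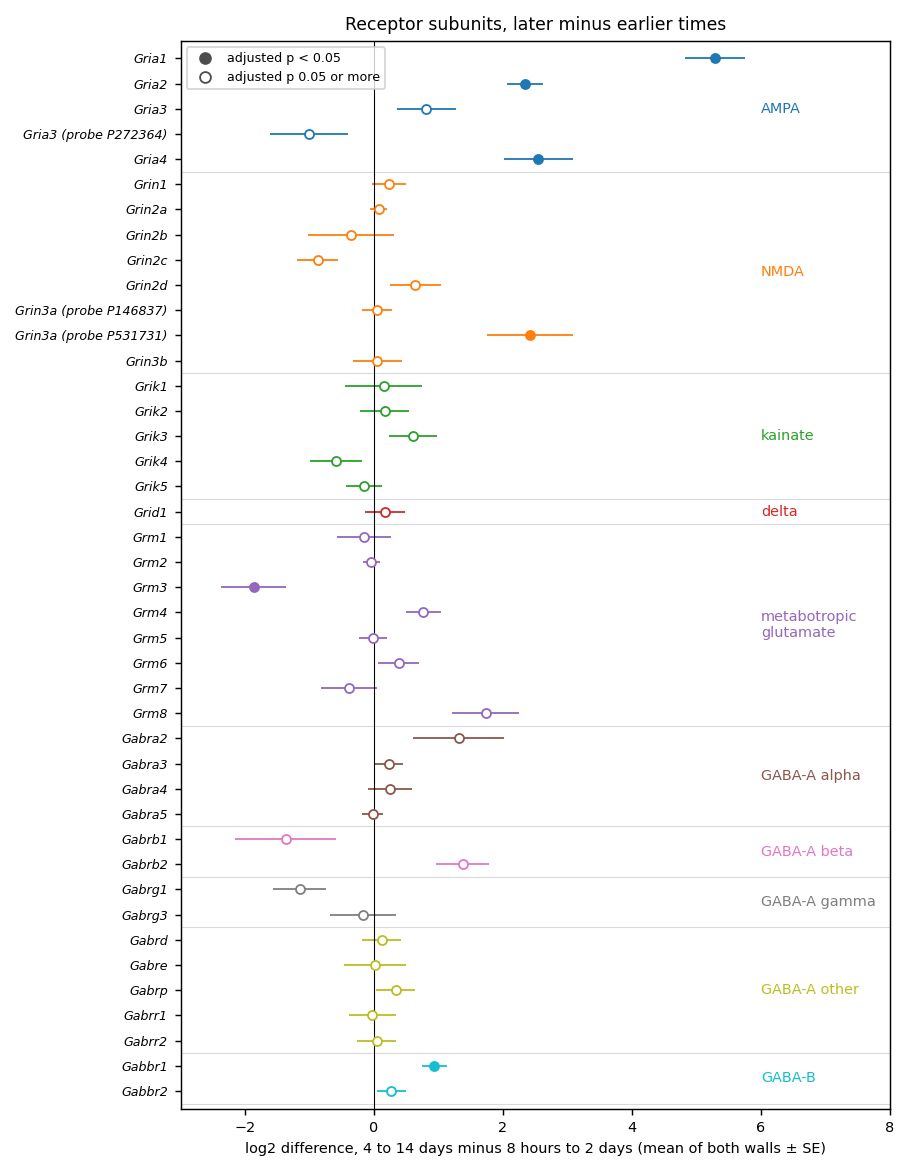
Log2 difference between later and earlier times in the mean of both walls for 42 of the 48 members, with bars of 1 SE, grouped and coloured by receptor family. Filled points passed an adjusted p of 0.05; Gria1 lies farthest right at 5.29 and Grm3 is the filled point farthest left at -1.86.

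Among AMPA receptor subunits Gria1, which encodes GluA1, had the largest difference of any member. Its dorsal level on later arrays ranged from 11.38 to 15.03 with a median of 13.69, against 6.05 to 11.08 with a median of 8.90 on earlier arrays. Laterally the later arrays lay between 10.61 and 14.19 (median 13.28) and the earlier ones between 6.03 and 8.40 (median 7.74). In each wall every later array was above every earlier array, which held for 0.28% of all features in the dorsal wall and 0.956% in the lateral wall. In the mean of both walls Gria1 and Gria2 were separated in this way, as were 0.779% of all features. The fitted difference of Gria1 in the mean of both walls was 5.29 (SE 0.46, 39.1-fold, adjusted p = 1.56e-05 in limma), with 5.08 (SE 0.70, adjusted p = 0.00106) in the dorsal and 5.50 (SE 0.43, adjusted p = 1.25e-05) in the lateral wall. Within slides 1, 3 and 4 it was 4.84, 6.36 and 4.19. Gria1 was above background on 6 of 7 earlier arrays in the dorsal wall and on 5 of 7 in the lateral wall.

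The second Gria1 probe, whose sequence is printed above, differed by 1.96 (SE 0.59, adjusted p = 0.0640 when each probe was tested on its own), so the 2 probes gave the same direction and different sizes. Their mean levels were close (11.03 for the first and 10.94 for the second), and without 4 days replicate 1, without 7 days replicate 2, without 14 days replicate 2, without both arrays that stood apart or with the scanner's processed signals the second was the brighter and stood for the gene. The difference was then 1.97 (adjusted p = 0.0921), 2.15 (adjusted p = 0.0486), 2.30 (adjusted p = 0.00298), 2.51 (adjusted p = 0.000755) and 2.07 (adjusted p = 0.0978), in this order, and the dorsal wall passed in none of the 5 (1.11 to 1.71). With the first probe kept, leaving out any 1 array gave 4.99 to 5.49 in the mean of both walls and 4.61 to 5.45 in the dorsal wall, and both passed each time. Gria3, read by the probe that matches it in part, differed by 0.81 (SE 0.46, adjusted p = 0.38) and did not pass the test. How far transcripts of one paralog bound the other's probe was not tested.

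Gria2, the subunit that makes AMPA receptors impermeable to calcium, rose in the lateral wall and was high in the dorsal wall throughout. Lateral levels were 13.47 to 15.19 (median 14.89) on the 8 later arrays with a value, against 9.99 to 12.89 (median 10.75) on the 7 earlier arrays, with no overlap. Dorsal levels were 13.23 to 16.50 (median 15.13) on later arrays and 12.79 to 16.16 (median 14.15) on earlier arrays, and these ranges overlapped. The difference was 3.50 (SE 0.42, adjusted p = 0.000678) in the lateral wall and 1.19 (SE 0.50, adjusted p = 0.25) in the dorsal wall. In the mean of both walls it was 2.35 (SE 0.28, 5.08-fold, adjusted p = 0.000348). Spots marked as outliers left Gria2 without a value on 14 days replicates 3 and 4, and the fit dropped them. The 2 other Gria2 probes, above background on at most 7 arrays in a wall, differed by 0.51 (adjusted p = 0.36) and 0.52 (adjusted p = 0.27), and the mean over its probes did not pass in both walls (0.67, adjusted p = 0.45) or in the lateral wall (1.09, adjusted p = 0.191).

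Gria4, a subunit with fast gating, was near background before 4 days in the lateral wall. There it lay between 6.09 and 6.60 (median 6.44) on earlier arrays and was well above background on 3 of 7; on later arrays it lay between 6.43 and 11.01 (median 9.45), with 9 of 10 above the highest earlier array. Dorsal levels were 6.41 to 11.71 (median 10.49) on later arrays, against 6.48 to 9.13 (median 7.50) on earlier ones, with overlap. The 14 days replicate 1 array was low in both walls (6.41 dorsal, 6.43 lateral). The difference was 2.55 in the mean of both walls (SE 0.54, adjusted p = 0.00905), 2.86 in the lateral wall (adjusted p = 0.00794) and 2.25 in the dorsal wall (adjusted p = 0.084). Its other 2 kept probes differed by 0.58 (adjusted p = 0.64) and 0.60 (adjusted p = 0.37), so the call rests on 1 probe.

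**Figure D3:**
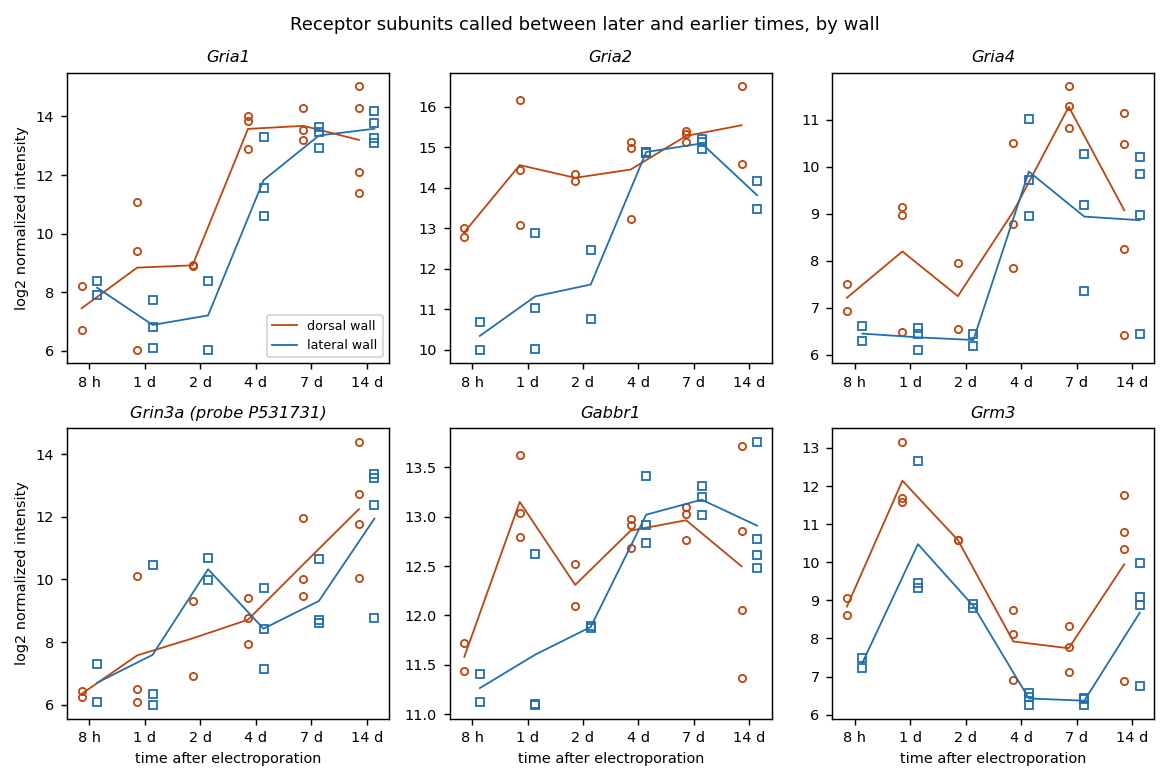
Log2 normalized intensity of 6 members called between later and earlier times, per array (points) and as the mean of each time (lines), in the dorsal wall (circles, drawn to the left) and the lateral wall (squares), from 8 hours to 14 days. Gria1 shifts upward between 2 and 4 days in both walls, lateral Gria2 joins the dorsal level at 4 days, and Grm3 is lowest at 4 and 7 days with the dorsal wall above the lateral wall at every time.

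No gene of the 6 NMDA receptor subunits tested by name passed the test between later and earlier times (median 0.06). At an unadjusted p under 0.05, 1 did, as did 19.5% of all features. Grin1, the obligate subunit, was above background on every array. Its dorsal levels were 7.66 to 8.88 (median 8.06) on later arrays and 7.14 to 9.86 (median 7.63) on earlier arrays. The lateral levels were 7.16 to 9.32 (median 7.91) and 7.53 to 8.66 (median 8.17), later and earlier, and both pairs of ranges overlapped. The difference was 0.23 (SE 0.27, adjusted p = 0.74).

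Grin2b, the subunit that dominates early in development, spread widely: 6.92 to 11.81 (median 8.48) on later dorsal arrays against 7.18 to 12.91 (median 9.61) on earlier ones. Lateral levels were 6.67 to 11.31 (median 8.25) on later arrays and 6.89 to 13.54 (median 8.28) on earlier arrays. The highest value in each wall was that of 1 day replicate 1, one of the arrays that stood apart. The difference was -0.35 (SE 0.67, adjusted p = 0.86). Its 5 probes disagreed, from -0.35 to 1.62, and the probe A_51_P229869 alone passed the test of single probes (1.62, SE 0.44, adjusted p = 0.0407).

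Grin2c, known best from cerebellar granule cells, passed the test of any difference between the 6 times (F = 11.02, adjusted p = 0.0108) and had its lowest levels at 4 to 7 days. The mean of both walls was 12.64, 13.36 and 12.91 on the 3 14 days arrays with a value, against 10.45, 10.24 and 9.43 on the 7 days arrays, with no overlap. This step of 2.94 (SE 0.51, adjusted p = 0.0280) was the only call among 48 members from 7 to 14 days, where 0.651% of all features passed. All 14 days arrays lie on a slide of their own, so this step and a slide difference cannot be told apart. Over the same step 6 of 10 astrocyte markers rose (median 2.66, with 10 of 10 above 0), and their part in it was not tested. The step of Grin2c no longer passed without either 8 hours array, any 1 of the 7 days arrays or 14 days replicate 3 (adjusted p up to 0.112), nor with the scanner's processed signals (3.02, adjusted p = 0.056).

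Grin3a, which lowers the calcium permeability of NMDA receptors, was read by 2 probes of the older annotation. Probe A_52_P531731 had dorsal levels of 7.95 to 14.40 (median 10.04) on later arrays, against 6.09 to 10.12 (median 6.50) on earlier arrays. In the lateral wall it had 7.14 to 13.37 (median 9.26) on later and 5.98 to 10.68 (median 7.30) on earlier arrays. The ranges overlapped in both walls, and the highest values were those of 14 days arrays. The difference was 2.41 (SE 0.67, adjusted p = 0.0390), with 3.14 in the dorsal wall (adjusted p = 0.0240). Within slides 1, 3 and 4 it was 2.32, -0.57 and 0.99, so its direction differed between slides. The call held in 4 of 17 fits that left out 1 array each, those without 1 day replicate 2, 4 days replicate 1, 14 days replicate 1 or 14 days replicate 2 (2.16 to 2.86, adjusted p up to 0.141); the dorsal call was lost without either 8 hours array, 2 days replicate 2 or 7 days replicate 1 (up to 0.0999) and with median centring (2.73, adjusted p = 0.0543). The call in the mean of both walls was also lost with no filter (adjusted p = 0.0504), without both arrays that stood apart (2.38, adjusted p = 0.0528), and without 1 and 14 days, where it was 1.27 with a slide block (adjusted p = 0.222) and 1.36 without one (adjusted p = 0.144). The dorsal difference was then 2.25 (adjusted p = 0.0861) and 2.37 (adjusted p = 0.0515). The other probe, near background, differed by 0.04 (adjusted p = 0.96).

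Among GABA-A receptor subunits Gabrb2, a beta subunit common in mature neurons, passed only in the lateral wall and at the edge of the threshold. Lateral levels were 8.86 to 12.90 (median 12.33) on later arrays and 8.93 to 11.99 (median 10.31) on earlier arrays, overlapping. The dorsal levels were 9.03 to 13.77 (median 11.19) and 8.92 to 11.55 (median 10.31), later and earlier. The lateral difference was 1.42 (SE 0.39, adjusted p = 0.0498), and that of both walls 1.38 (SE 0.41, adjusted p = 0.054). The lateral call held in 2 of 17 fits that left out 1 array each, those without 1 day replicate 1 or 14 days replicate 1 (1.21 to 1.69, adjusted p up to 0.176), and was lost with the scanner's processed signals (1.46, adjusted p = 0.108), quantile normalization (1.37, adjusted p = 0.072) and no filter (adjusted p = 0.0562).

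The alpha subunits, which set receptor kinetics and pharmacology, gave no call in the 5 tested (median 0.25). Of these 0 had an unadjusted p under 0.05, where 19.5% of all features did. Gabra2, the alpha subunit that is abundant in the immature forebrain, had dorsal levels of 6.65 to 13.84 (median 9.09) on later arrays and 6.68 to 10.09 (median 7.80) on the 6 earlier arrays with a value. In the lateral wall it had 7.41 to 11.76 (median 9.66) and 7.24 to 9.72 (median 7.62), later and earlier. The ranges overlapped and the difference of 1.31 (SE 0.71) did not pass (adjusted p = 0.36). A dimmer Gabra2 probe, A_51_P417507, above background on all 17 arrays, did pass when probes were tested singly (1.48, SE 0.28, adjusted p = 0.00583). Gabra2 passed in 3 of 15 settings and in 0 of 16 fits that left out 1 array each. The 3 settings were the mean over its probes (1.21, adjusted p = 0.0307), RefSeq probes only (1.48, adjusted p = 0.00432) and a slide block without 1 and 14 days (1.22, adjusted p = 0.0443).

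Gabrb1 (-1.37, SE 0.79, adjusted p = 0.39) and Gabrg1 (-1.15, SE 0.41, adjusted p = 0.11), subunits also reported in glia, had negative differences that did not pass. Gabrg1 did pass the test over the 6 times (F = 7.05, adjusted p = 0.0331): its mean of both walls lay between 6.93 and 9.05 at 4 and 7 days, and at 8.73, 12.04, 10.38 and 10.95 at 14 days, against 9.29 to 10.66 on all earlier arrays. The delta, epsilon, pi and rho subunits, 5 genes in all, differed by 0.01 to 0.34 in size and none passed.

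Gabbr1, the ligand-binding subunit of the GABA-B receptor, rose in the lateral wall, where levels were 12.48 to 13.76 (median 12.96) on later arrays against 11.09 to 12.62 (median 11.40) on earlier arrays. All but 2 of the 10 later lateral arrays were above every earlier one. Dorsal levels were 11.37 to 13.72 (median 12.88) and 11.44 to 13.62 (median 12.52), later and earlier, and overlapped. The difference was 1.45 (SE 0.26, adjusted p = 0.00527) in the lateral wall, 0.43 (SE 0.30, adjusted p = 0.54) in the dorsal wall and 0.94 (SE 0.20, adjusted p = 0.00944) in both. As the mean over its probes it was 0.63 (adjusted p = 0.0527) in both. When probes were tested singly, its other kept probes disagreed in the mean of both walls. A_52_P592639 gave 1.05 (adjusted p = 0.0361), A_51_P464900 0.62 (adjusted p = 0.59) and A_52_P624444 -0.08 (adjusted p = 0.89). Gabbr2, the partner of Gabbr1, differed by 0.27 (SE 0.23, adjusted p = 0.61).

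Among metabotropic glutamate receptors Grm3 fell. It had dorsal levels of 6.90 to 11.76 (median 8.22) on later arrays, against 8.62 to 13.17 (median 10.59) on earlier arrays. In the lateral wall the levels were 6.25 to 9.99 (median 6.52) on later and 7.23 to 12.66 (median 8.91) on earlier arrays. In both walls the ranges overlapped, with 14 days replicates 2, 3 and 4 high among the later arrays. The difference was -1.86 (SE 0.51, adjusted p = 0.0358) in both walls together and -0.96, -2.18 and -3.05 within slides 1, 3 and 4. Neither wall passed alone (-1.98, adjusted p = 0.078 dorsal; -1.74, adjusted p = 0.064 lateral). The call was lost without any 1 of the 8 hours, 2 days or 7 days arrays, or 4 days replicates 2 or 3 (-1.997 to -1.59 over the 17 fits, adjusted p up to 0.110). It was also lost with a replicate block (-1.997, adjusted p = 0.0613). Among the other 7 metabotropic receptors Grm8, a presynaptic group III receptor, had the largest difference (1.73, SE 0.52, adjusted p = 0.058) and Grm4 the next (0.77, SE 0.27, adjusted p = 0.11). The 5 kainate subunits lay between -0.60 (Grik4) and 0.60 (Grik3), and none passed.

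In the single walls, 4 of 48 members (8.33%) rose and 0 fell in the dorsal wall, where 4.98% of all features passed, 1.44% upward and 3.54% downward. In the lateral wall 6 of 48 (12.5%) rose and 0 fell, where 6.08% of all features passed, 3.27% upward and 2.82% downward. At an unadjusted p under 0.05 there were 14 in each wall (29.2%), against 16.4% of all features dorsally and 16.8% laterally. Gria1 passed in both. Gria2, Gria4, Gabbr1 and Gabrb2 were among those that passed in the lateral wall, and the Grin3a probe among those in the dorsal wall. The difference between the walls' changes was tested itself, and no member passed in limma's test (8, or 16.7%, at an unadjusted p under 0.05, as were 11.6% of all features, of which 0.299% passed), so no member is shown to change more in one wall than in the other.

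**Figure D4:**
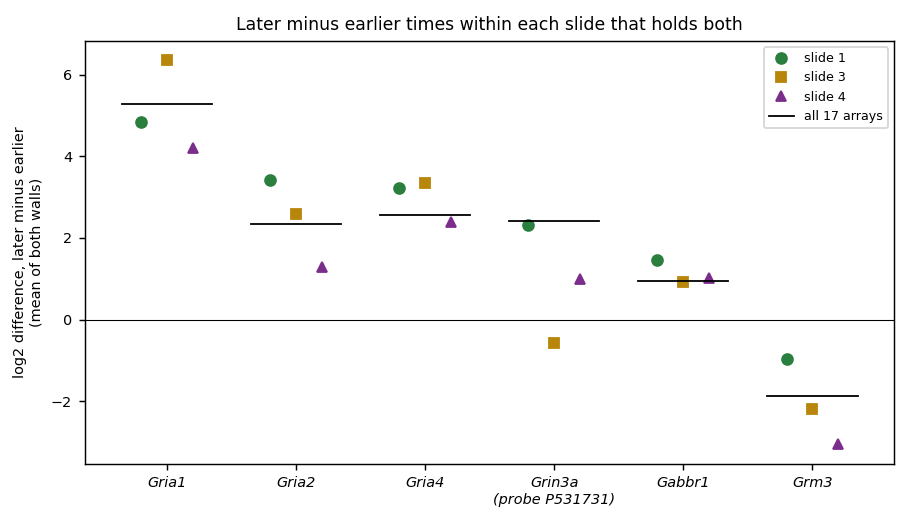
Log2 difference between later and earlier arrays in the mean of both walls, computed within slide 1, slide 3 and slide 4 (points) for 6 called members, with the fitted difference over all 17 arrays as a black line. Gria1, Gria2, Gria4 and Gabbr1 are above 0 and Grm3 below 0 on all 3 slides; the Grin3a probe is below 0 on slide 3.

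Step by step between neighbouring times, the one call from 2 to 4 days was Gria1, where 0.631% of all features passed. The mean of both walls was 13.67, 12.22 and 12.21 on the 4 days arrays, against 7.46 and 8.67 on the 2 days arrays, a step of 4.63 (SE 0.84, adjusted p = 0.0248). With the probe kept, the step no longer passed without any 1 of these 5 arrays (4.03 to 5.24, adjusted p up to 0.312). In the 5 settings named above in which the second probe stood for Gria1, the step was 1.69 to 1.79 and did not pass (adjusted p = 0.182 to 0.941). From 8 hours to 1 day, 1 to 2 days and 4 to 7 days no member passed in limma's test and 1.42%, 0.00378% and 0.068% of all features did. At an unadjusted p under 0.05 there were 12, 2 and 1 members (25%, 4.17% and 2.08%), against 18%, 9.14% and 4.36% of all features. Over all 6 times, 7 of 48 members (14.6%) passed the F test, against 7.52% of all features, among them Gria1 (F = 27.6), Gria2 (15.8), Grin2c, Grm3 (7.76), Gabrg1 and the Grin3a probe (6.54).

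Between the walls, 3 of 48 members (6.25%) differed on average over the 6 times, all higher in the dorsal wall, where 2.38% of all features differed in either direction and 1.29% were higher dorsally. They were Grm3, Gria2 and Grik1, the GluK1 kainate receptor subunit. The median over the members was 0.05, against 0.02 over all features. With each array's log ratios centred on their median in place of loess, 9 members differed, 3 higher and 6 lower in the dorsal wall. This setting moved the median of all features to -0.21. The share of all features that differed under it is not given here, so these counts cannot be set against it.

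Grm3 was higher dorsally on all 17 arrays. The dorsal minus lateral difference was 1.55 and 1.39 at 8 hours, 0.51, 2.35 and 2.13 at 1 day, and 1.79 and 1.67 at 2 days. The 4 days arrays gave 2.17, 0.44 and 1.87, the 7 days arrays 1.92, 0.87 and 1.33, and the 14 days arrays 0.13, 0.35, 1.91 and 2.68. Its mean was 1.501 (SE 0.22, 2.83-fold, adjusted p = 0.00538). With a replicate block this mean was 1.35 and did not pass (adjusted p = 0.209). On the later arrays lateral Grm3 was above background on 6 of 10 arrays, against 10 of 10 dorsally, so the difference there is partly limited by background. Between the same walls 5 of 10 astrocyte markers (median 1.27) and 3 of 8 radial glia markers (median 0.91) were higher dorsally, and their part in this difference was not tested.

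Gria2 was higher dorsally on all 7 earlier arrays, by 2.32 and 2.79 at 8 hours, 6.13, 1.55 and 2.03 at 1 day, and 3.58 and 1.68 at 2 days. The 4 days arrays gave 0.24, -1.63 and 0.09, the 7 days arrays 0.18, -0.07 and 0.44, and the 2 arrays of 14 days with a value 0.42 and 3.03. The 6.13 was that of 1 day replicate 1 and the 3.03 that of 14 days replicate 2, the arrays that stood apart. The mean difference was 1.65 (SE 0.37, adjusted p = 0.0469). It passed in 6 of 17 fits that left out 1 array each, those without any 1 of the 1 day arrays, 4 days replicate 2, or 14 days replicates 1 or 4 (1.41 to 1.87 over the 17, adjusted p up to 0.143), and not with median centring (0.77, adjusted p = 0.198), the mean over its probes (0.58, adjusted p = 0.0909) or the scanner's processed signals (1.52, adjusted p = 0.0836). The later minus earlier change of this difference was -2.32 (SE 0.74), with an adjusted p of 0.27.

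Grik1 was also higher dorsally on all 7 earlier arrays. Dorsal minus lateral was 4.10 and 2.77 at 8 hours, 0.14, 3.39 and 1.85 at 1 day, and 2.72 and 2.26 at 2 days. The 4 days arrays gave -1.32, 0.10 and -0.01, the 7 days arrays -1.22, 3.48 and 0.12, and the 14 days arrays 2.47, -0.095, -0.30 and 0.64. The mean difference was 1.46 (SE 0.35, adjusted p = 0.0483), and its change between later and earlier times was -2.22 (SE 0.70, adjusted p = 0.25). The mean passed in 2 of 17 fits that left out 1 array each, those without 1 day replicate 1 or 7 days replicate 1 (1.24 to 1.63 over the 17, adjusted p up to 0.160). It did not pass with the scanner's processed signals (2.30, adjusted p = 0.0994), quantile normalization (1.18, adjusted p = 0.0948) or the deposited value table (2.13, adjusted p = 0.0671). When probes were tested singly, this Grik1 probe gave 1.46 (adjusted p = 0.0574). The other kept Grik1 probe gave 0.67 (adjusted p = 0.243). On earlier arrays Grik1 was above background on 6 of 7 dorsally and 4 of 7 laterally, with lateral levels of 5.63 to 7.09.

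**Figure D5:**
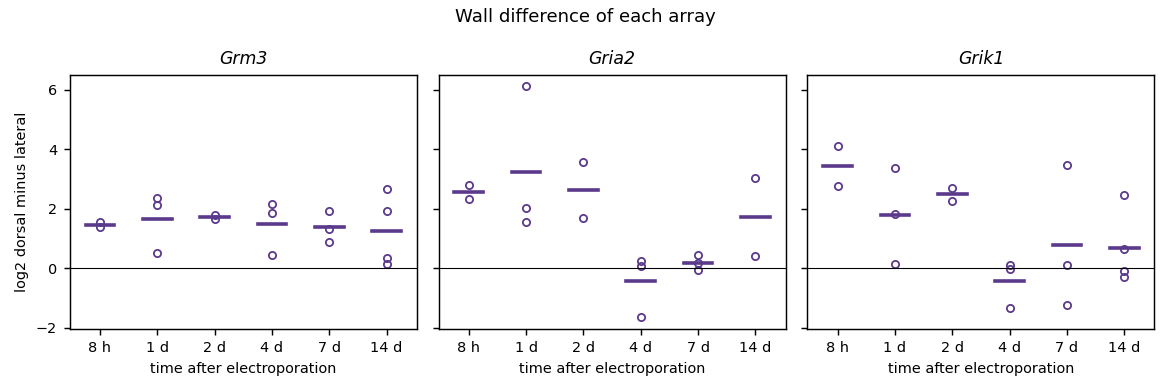
Dorsal minus lateral log2 difference of each array (circles) and its mean at each time (bars) for Grm3, Gria2 and Grik1, from 8 hours to 14 days. Grm3 lies above 0 on all 17 arrays and Gria2 and Grik1 lie above 0 on all 7 earlier arrays and between -1.63 and 0.24 at 4 days.

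At single times no member's wall difference passed in limma's test: the count was 0 of 48 at each of the 6 times. At an unadjusted p under 0.05 there were 6 at 8 hours, 9 at 1 day, 4 each at 2 and 4 days, and 7 each at 7 and 14 days (12.5%, 18.8%, 8.33%, 8.33%, 14.6% and 14.6%), against 7.34%, 16.1%, 7.87%, 5.47%, 5.15% and 10.3% of all features, in order of time. Of all features, 0.378%, 1.1%, 0.181%, 0%, 0.0265% and 0.0227% passed the adjusted test at these times. The nearest was Gria2 at 1 day (3.24, SE 0.81, adjusted p = 0.086). Its largest difference at that time was on replicate 1, one of the arrays that stood apart.

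Genes around the receptors gave a frame for these values. Of 15 genes for the synthesis and transport of both transmitters, 4 rose and 2 fell between later and earlier times (median 0.28). The largest rises were those of Gad1, which makes GABA from glutamate (4.87, SE 0.34, adjusted p = 4.29e-06), and of its isozyme gene Gad2 (3.31, SE 0.50, adjusted p = 0.00102). The falls were those of the glial glutamate transporters Slc1a2 (-1.73, SE 0.24, adjusted p = 0.000586) and Slc1a3 (-0.67, SE 0.16, adjusted p = 0.0248). Of 12 auxiliary subunits of AMPA and kainate receptors, Cacng5, a transmembrane AMPA receptor regulatory protein gene, rose (2.87, SE 0.40, adjusted p = 0.000512) and Cnih3, a cornichon gene, fell (-1.56, SE 0.43, adjusted p = 0.0369).

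Of 20 postsynaptic scaffold genes, 2 rose and 0 fell. They were Grip1, whose product binds AMPA receptors (3.42, SE 0.54, adjusted p = 0.00136), and Shank1, a scaffold of excitatory synapses (0.82, SE 0.17, adjusted p = 0.00734). Of 5 glycine receptor genes Glrb, the beta subunit, rose (1.71, SE 0.34, adjusted p = 0.00669). Neither of the 2 chloride cotransporters that set the sign of the GABA response, Slc12a2 and Slc12a5, passed (median 0.75). Between the walls, 3 of the 15 synthesis and transport genes were higher dorsally, with the vesicular glutamate transporter Slc17a6 the largest (3.08, SE 0.51, adjusted p = 0.0104), and Gad2 was lower (-1.04, SE 0.23, adjusted p = 0.0375).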

How the data were processed

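Per the labels' protocols, RNA of sorted cells was amplified as cDNA by a global PCR protocol and labelled with Cy3 (dorsal wall) or Cy5 (lateral wall). The authors deposited scanner output with spot intensities, background, flags and a log10 ratio for each of 17 two-colour Agilent arrays, read by Feature Extraction (versions 10.5.1.1 and 10.7.3.1) per the file headers, and a value table of log2 ratios. The tables' log10 and log2 ratios served only to find scale and direction and as an alternative.

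Intensities were background-corrected (normexp, offset 50), then normalized by loess on each array (1639 control spots had weight 0) and by Aquantile between arrays, in limma 3.58.1 (R 4.3.3). Outlier spots were set to missing. Probes well above background in either wall on 2 or more arrays were kept. Genes were named through RefSeq accessions, then symbols, then the file's name. The probe with the highest mean stood for a gene. The mean of both walls, the wall difference and each wall were fitted with time as a factor (lmFit, eBayes), with p-values adjusted over all features (Benjamini-Hochberg). The fits were tested on simulated data with known changes. The simulated noise was independent between arrays, so this test does not cover slide or dye effects or arrays that stand apart. The number of arrays, 2 to 4 a time, limits the precision.

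Per-array values are printed for members called in a later minus earlier or wall contrast, and for Gria2, Grin1, Grin2b, Gabra2 and Gabbr1 whatever their test, while some members enter the counts and are not reported here; of other pathway lists at most 2 rises and 2 falls are named. The members, gene lists and tests were chosen with earlier results of these data known. Alternatives were other background corrections, scalings, filters, probe rules, array weights, slide, scan day and replicate blocks, and leaving out arrays.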

Additional observations from a re-analysis of the deposited data

Results flagged for a closer look

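Among 30 sets of 4 values at 14 days (dorsal level, lateral level and wall difference of 11 members with per-array values), 1 held an array far from the other 3 by Dixon's test with a limit of 0.829; chance gives about 1 in 20. The dorsal minus lateral difference of Gabrb2 was 3.65 on replicate 4, against 0.17 to 0.57 on the other 3. The cause of this value was not tested.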

How the results depend on the processing

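The alternatives were several settings and the 17 fits without 1 array each. Gria4 passed between later and earlier times in the 15 settings that tested genes and gave it a value. It also passed in all 17 of these fits. No member's change of the wall difference passed in any alternative that gave a value. The share of all features that passed in each setting is not given beside the counts below. A larger count alone therefore shows no gain particular to the members. Between later and earlier times 8 members passed. Array weights gave 16, and leaving out both arrays that stood apart gave 13. Leaving out 1 and 14 days, a choice made after seeing the data, gave 14 without and 17 with a slide block. The F test (7) gave 27 with array weights and 29 with slide as a random block. In the dorsal wall (4) array weights gave 14, median centring 2, and leaving out 1 and 14 days 7 with and without the block. In the lateral wall (6) array weights and leaving out both arrays apart gave 12 each, and leaving out 1 and 14 days 11 without and 12 with the block. The step from 8 hours to 1 day (0) gave 12 with array weights, 15 with slide and 2 with scan day as a random block, that from 1 to 2 days (0) gave 1 with array weights, that from 2 to 4 days (1) gave 0 with scanner processed signals, 11 with array weights and 2, Gria1 not among them (1.70, adjusted p = 0.182), without both arrays apart, and that from 7 to 14 days (1) gave 0 with scanner processed signals, 2 without both arrays apart and 3 with slide as a random block. The mean wall difference (3) gave 1 with scanner processed signals and with each probe tested, 9 with median centring, 6 without both arrays apart and 8 with slide as a random block. Wall differences at single times (0) gave 1 at 8 hours with array weights, 1, 3, 5 and 1 at 1 day with quantile normalization, without both arrays apart and with slide or scan day as a random block, and 2 and 6 at 14 days with median centring and slide as a random block. The random blocks had negative consensus correlations (slide -0.24, scan day -0.107 for the mean of both walls). A negative value lowers the standard error of a mean whose arrays all share a block, as at 1 and 14 days. Larger counts with a random block therefore do not show stronger results. Leaving out 1 array gave 5 to 11 between later and earlier times, with 5 without 8 hours replicate 2 or 2 days replicate 2. It gave 4 to 11 in the F test, 1 to 6 dorsally, 5 to 10 laterally, 1 to 4 for the mean wall difference, 0 to 7, 0, 0 to 2, 0 and 0 to 3 in the 5 steps, 0 to 1 for the walls at 1 day and 0 at the other times. Grin2b turned from -0.35 to 0.37 as the mean over probes, 0.092 without both arrays apart, 0.0473 without 1 day replicate 1 (0.0482 with the probes kept; -0.67 is the lowest without 1 array), and 0.14 with and 0.54 without the slide block when 1 and 14 days were left out. The labels do not say whether replicate numbers pair samples across times. The letters in the sample titles depart from these numbers at 1 day (b, c and d) and for the last arrays of 14 days (d and e). Pairing by number and by letter therefore differ, and a block by letter was not tested. Deviations of same-numbered arrays correlated at -0.132 to 0.319 (median 0.0209, 36 pairs), those of other pairs at -0.3 to 0.287 (median -0.00841, 83 pairs). These overlapping ranges cannot decide it. Replicate 1 of 2, 4 and 7 days lay on slide 3, and replicate 2 of these times on slide 4. With a replicate block the counts were 1 (8 hours to 1 day), 0 (2 to 4 days), 0 (7 to 14 days), 4 (F test), 2 (dorsal) and 0 (mean wall difference). For the mean wall difference Gria2 then gave 2.15 (adjusted p = 0.297), Grik1 1.15 (adjusted p = 0.534) and Grm3 1.35 (adjusted p = 0.209). The cause of these shifts was not tested. Arrays at 2 to 4 a time, and lateral Grm3 and Gria4 and most Grin2a values near background, limit what can be told.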
